A study of Mus musculus with 9 samples.

Results

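The 40 genes described here copy DNA or supply the deoxynucleotides for it, except Uhrf1, which serves DNA methylation maintenance. They were chosen by symbol from a list made for this purpose. All 40 were found, each with 1 identifier, among the 54725 genes of the authors' FPKM table. The cells were RAW264.7, a mouse macrophage line derived from an Abelson leukaemia virus tumour, and their RNA was sequenced. By title the 9 samples form 3 groups of 3, named CON, LPS and ProNa. Lipopolysaccharide (LPS) is an outer membrane component of bacteria that macrophages detect with Toll-like receptor 4, and the labels do not expand ProNa. One treatment text serves all samples and describes 24 h with or without ProNa at 1 mM, then 12 h of LPS at 100 ng/mL. CON is read here as untreated cells, LPS as cells given LPS alone and ProNa as cells given first ProNa and then LPS, which the labels do not state for single samples. No group with ProNa alone was analysed here, and the labels do not say if the samples within a group were separate cultures, so p-values measure only the spread between samples, which may be technical.

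Before a cell divides, the origin recognition complex with Cdc6 and Cdt1 loads the MCM2-7 ring onto DNA, and Cdc45 and GINS then turn that ring into the active helicase. Polymerase alpha with primase starts each strand, polymerases epsilon and delta extend it, and the Pcna clamp, opened by replication factor C, holds them on the template. Ribonucleotide reductase, thymidylate synthase and thymidine kinase provide the deoxynucleotides. Many of these genes are textbook targets of E2F transcription factors and are transcribed mainly in late G1 and S phase, so they are abundant in dividing lines such as RAW264.7.

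Levels below are the authors' mean FPKM per group, that is fragments scaled by transcript length and by library total, summed here over the transcripts of a gene. Library columns could not be tied to samples, so no SD, n per value or value per sample is given, and whether samples of different groups overlap cannot be said. Read totals, and with them the depth, are unknown. Tests are those of the authors' deposited table, a DESeq2 comparison of each pair of groups over all genes, and a gene is called where its adjusted p is under 0.05. Of 10 macrophage markers 9 stood at 1 FPKM or more in every group, and their summed level was 12863 FPKM in CON against 3503 in LPS and 4930 in ProNa. The exception was Mertk. Lyz2, the macrophage lysozyme, made up most of that sum in CON, with 9719 FPKM against 661 in LPS and 1586 in ProNa. In LPS against CON the authors' deposited table called 5 of the 10 markers higher and 4 lower, where 28.1% and 27.2% of all genes tested were. None of 12 epithelial markers reached 1 FPKM in any group, with a summed level between 0.0367 and 0.207 FPKM and Epcam and Cdh1 listed at 0 in all 3 groups, although the extraction text speaks of colonic segments. Among 10 fibroblast and smooth muscle markers Acta2 alone passed 1 FPKM, and the summed level was 1.49 FPKM in CON against 14.1 in LPS and 17.8 in ProNa. Lymphocyte markers summed to at most 0.0501 FPKM. The part of these markers in the results was not tested.

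In LPS against CON nearly all of the replication genes fell. Their summed level was 1471 FPKM in CON against 392 in LPS and 369 in ProNa, or 0.186%, 0.0499% and 0.0465% of all summed FPKM. The median gene of the set stood at 30.3 FPKM in CON against 4.90 in LPS and 4.34 in ProNa. In bulk RNA, fewer cells in a state and less RNA per cell cannot be told apart. By the authors' deposited table, 38 of the 40 genes were called lower in LPS, against 27.2% of the 17795 genes tested, and 2 were called higher, against 28.1%. All 40 were thus called, where the share over all genes was 55.4%. Over the 12351 genes with at least 1 FPKM in 1 or more groups, with p readjusted, 36.2% were called lower.

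The size of the fall varied widely between members, and differences in size between genes were not tested. The median log2 fold change of the 40 genes in the authors' deposited table was -2.10, and that of all genes tested was -0.02. Values ran from -5.63 for Pole, the catalytic subunit of polymerase epsilon, to 0.58 for Pola2, the accessory subunit of polymerase alpha, in the authors' deposited table. In the same contrast of the authors' deposited table, 33 of the 40 genes were called with at least a 2-fold change, against 27.9% of all genes, and 21 were called lower by at least 4-fold, against 6.78%. No member was under 1 FPKM in CON, 6 were in LPS and 3 in ProNa. The plot of group mean FPKM by gene shows CON to the right of both other groups in 38 rows.

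**Figure D1:**
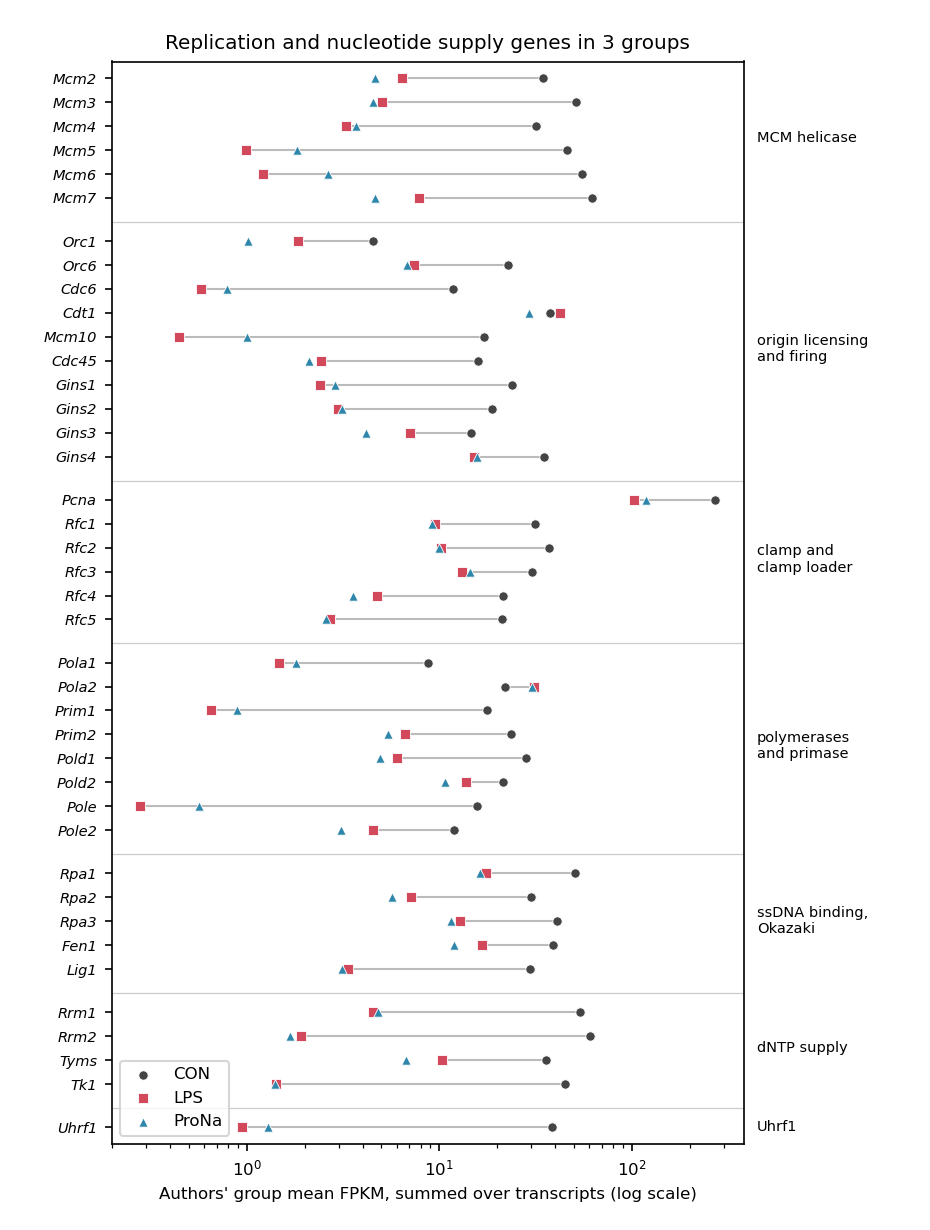
Group mean FPKM (log scale, summed over transcripts by the authors' values) of the 40 genes in CON (circles), LPS (squares) and ProNa (triangles), ordered by role. A grey line joins the CON and LPS values of each gene. No error is drawn because no values per sample could be assigned, and the 2 genes whose LPS mark lies to the right of CON are Pola2 and Cdt1.

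Because these genes moved together, their promoters were read from the RefSeq promoter table of GRCm38.p6, an earlier build than the GRCm39 of the deposited files. Each window ran from 250 bases before to 50 bases after the annotated start. Windows were found for 33 of the 40 genes, the missing ones being Gins1, Gins2, Gins4, Mcm4, Pole, Prim2 and Rfc2. The letters searched were TTTCCCGC, TTTCGCGC, TTTGGCGC and TTTGCCGC on both strands, which are forms of the E2F site and can overlap each other. They were present in 14 of the 33 genes, 42.4%, against 704 of 27025 gene symbols in the table, 2.61%. Those symbols were not limited to genes tested in these cells, for which shares are given below. Counting only letters before the start, the shares were 27.3% and 2.16%. The box CCAAT, on both strands, was present in 66.7% of these genes and in 41.1% of all. Mcm5 and Mcm6, helicase subunits with log2 fold changes of -5.27 and -5.47 in the authors' deposited table, carry the letters as overlapping pairs. The 250 bases before their starts are given 5′ to 3′ on the strand of each gene, with E2F-type letters in capitals, for Mcm5 from chr8:75109259-75109508 (plus strand) and for Mcm6 from chr1:128359706-128359955 (minus strand).
Mcm5: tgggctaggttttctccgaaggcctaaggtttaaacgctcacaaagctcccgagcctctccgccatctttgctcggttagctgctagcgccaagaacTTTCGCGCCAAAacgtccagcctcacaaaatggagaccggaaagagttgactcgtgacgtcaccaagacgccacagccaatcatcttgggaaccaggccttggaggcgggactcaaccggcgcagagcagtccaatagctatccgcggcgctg
Mcm6: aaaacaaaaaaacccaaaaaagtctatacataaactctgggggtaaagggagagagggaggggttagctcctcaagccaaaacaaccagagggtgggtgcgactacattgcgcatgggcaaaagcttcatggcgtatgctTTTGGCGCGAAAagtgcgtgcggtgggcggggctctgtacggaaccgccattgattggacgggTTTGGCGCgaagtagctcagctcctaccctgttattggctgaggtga
Shorter stretches of 40 bases show the same letters in other genes from 5 roles, to let their form and surroundings be compared. They come from chr11:98907997-98908036 (plus) for Cdc6, chr8:95633502-95633541 (plus) for Gins3, chr5:138172025-138172064 (minus) for Mcm7, chr4:108579411-108579450 (plus) for Orc1, chrX:93632270-93632309 (minus) for Pola1, chr5:151651209-151651248 (minus) for Rfc3 and chr17:56304112-56304151 (plus) for Uhrf1.
Cdc6: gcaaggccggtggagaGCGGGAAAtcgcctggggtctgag
Gins3: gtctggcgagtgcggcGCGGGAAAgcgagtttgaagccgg
Mcm7: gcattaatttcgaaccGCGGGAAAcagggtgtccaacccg
Orc1: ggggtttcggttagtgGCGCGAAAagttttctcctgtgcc
Pola1: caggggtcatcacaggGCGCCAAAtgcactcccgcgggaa
Rfc3: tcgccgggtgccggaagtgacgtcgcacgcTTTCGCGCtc
Uhrf1: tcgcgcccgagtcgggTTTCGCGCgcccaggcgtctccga

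Genes with and without the letters both fell. The 14 genes with them had a median log2 fold change of -2.84 in LPS against CON by the authors' deposited table, 13 called lower and Cdt1 higher. The 19 genes without them had a median of -1.78 in the authors' deposited table, 18 called lower and Pola2 higher. Outside the set, the letters were in 56 of 804 genes called lower by at least 4-fold (6.97%), in 164 of 2762 called lower by less (5.94%), in 150 of 4177 not called (3.59%) and in 118 of 3738 called higher (3.16%), with calls from the authors' deposited table. A match of letters is a description of the window and says nothing of binding, and a window without them may hold other forms.

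The 6 subunits of the MCM2-7 ring, the motor that unwinds the fork, stood between 31.6 and 62.5 FPKM in CON and fell to between 0.993 and 7.86 FPKM in LPS. Mcm7 stood highest in CON, at 62.5 FPKM, and at 7.86 in LPS and 4.63 in ProNa. Mcm6 had 54.9 FPKM in CON against 1.22 in LPS and 2.66 in ProNa. Mcm4 was the lowest subunit in CON, at 31.6 FPKM, with 3.29 in LPS and 3.69 in ProNa. Every subunit was at least 4-fold lower in LPS, but not evenly so. In the authors' deposited table Mcm6 was 44.5-fold lower (adjusted p listed as 0) and Mcm5 38.5-fold lower (adjusted p = 1.0e-303). Falls in the authors' deposited table were 9.0-fold for Mcm3, 8.39-fold for Mcm7, 7.84-fold for Mcm4 and 4.49-fold for Mcm2, with adjusted p at or under 1.4e-136. Mcm5 fell from 46.0 FPKM in CON to 0.993 in LPS and stood at 1.83 in ProNa. Mcm3 had 51.5, 5.07 and 4.53 FPKM and Mcm2 34.5, 6.37 and 4.66 FPKM in CON, LPS and ProNa. The ring therefore had its subunits within 1.98-fold of one another in CON and within 7.91-fold in LPS.

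Of the 10 genes that license and fire origins, 9 fell in LPS and Cdt1, which delivers the MCM ring to the origin, was higher. Mcm10, a factor that helps to start the helicase, went from 17.0 FPKM in CON to 0.447 in LPS and 1.00 in ProNa. It was 47.1-fold lower in LPS by the authors' deposited table (adjusted p = 2.6e-98). Cdc6, the loader ATPase, had 11.7 FPKM in CON against 0.577 in LPS and 0.790 in ProNa, 17.4-fold lower in LPS by the authors' deposited table (adjusted p = 7.3e-93). Orc1, the largest origin recognition subunit, was the lowest of all 40 genes in CON, at 4.52 FPKM, with 1.84 in LPS and 1.01 in ProNa. The fall in LPS was 2.53-fold in the authors' deposited table (adjusted p = 8.2e-09). Orc6, another subunit of that complex, had 22.9, 7.43 and 6.78 FPKM and was 2.71-fold lower in LPS by the authors' deposited table (adjusted p = 2.6e-21). Both origin recognition subunits thus fell far less than Cdc6, which joins them at the origin.

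Cdc45, which rides with the active helicase, had 15.9 FPKM in CON against 2.44 in LPS and 2.10 in ProNa, and the authors' deposited table gave it a 5.58-fold fall in LPS (adjusted p = 5.2e-57). The 4 GINS genes complete that helicase and all fell, by unequal amounts. Gins1 had 23.8, 2.40 and 2.86 FPKM in CON, LPS and ProNa, Gins2 18.8, 2.97 and 3.13, Gins3 14.6, 7.07 and 4.15, and Gins4 35.1, 15.2 and 15.8. Relative to CON, LPS values of the authors' deposited table were 8.39-fold lower for Gins1, 3.47-fold for Gins2, 1.92-fold for Gins4 and 1.73-fold for Gins3, with adjusted p at or under 1.4e-11. Gins3 was the scarcest of the 4 in CON and the second most abundant in LPS.

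Pcna, the sliding clamp, was the most abundant of the 40 genes in every group, with 272 FPKM in CON against 103 in LPS and 118 in ProNa. Its level fell 2.19-fold in LPS by the authors' deposited table (adjusted p = 1.1e-65), so that it made up a larger part of the set's summed level there. The 5 subunits of replication factor C, which opens and closes the clamp, fell with it. Rfc2 had 37.2 FPKM in CON against 10.3 in LPS and 9.99 in ProNa, and Rfc5 had 21.3, 2.69 and 2.57. Rfc1 stood at 31.5, 9.56 and 9.18 FPKM, Rfc3 at 30.4, 13.2 and 14.5, and Rfc4 at 21.6, 4.73 and 3.57. Of these the authors' deposited table gave the deepest fall to Rfc5, 5.59-fold (adjusted p = 2.3e-83), then Rfc4 at 4.24-fold, Rfc2 at 2.81-fold, Rfc1 at 2.75-fold and Rfc3 at 1.97-fold (adjusted p = 4.1e-13). Falls thus differed between subunits of the loader, with Rfc3 the most abundant of the 5 in LPS and in ProNa.

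Among the 8 polymerase and primase genes 7 fell in LPS and Pola2 was higher. Pole was at 15.6 FPKM in CON against 0.280 in LPS and 0.567 in ProNa, and the authors' deposited table gave it a 49.4-fold fall in LPS (adjusted p = 9.4e-152). Prim1, the catalytic primase subunit, had 17.7 FPKM in CON against 0.650 in LPS and 0.887 in ProNa, with a 26.4-fold fall in LPS in the authors' deposited table (adjusted p = 4.2e-83). Prim2, its regulatory partner, had 23.7, 6.61 and 5.40 FPKM and a 2.97-fold fall in the authors' deposited table (adjusted p = 9.8e-32). The 2 primase subunits, near one another in CON, were therefore far apart in LPS. Pola1, the catalytic subunit of polymerase alpha, was the lowest polymerase gene in CON, with 8.78 FPKM, 1.46 in LPS and 1.81 in ProNa, a 6.50-fold fall by the authors' deposited table (adjusted p = 2.1e-95). Pold1, the catalytic subunit of polymerase delta, had 28.2, 6.03 and 4.92 FPKM and fell 4.32-fold in the authors' deposited table (adjusted p = 2.9e-92). Its accessory partner Pold2 had 21.4, 13.9 and 10.7 FPKM, with the smallest fall of the set in the authors' deposited table, 1.24-fold (adjusted p = 0.011). Pole2, the second subunit of polymerase epsilon, had 11.9, 4.51 and 3.10 FPKM and fell 2.14-fold in the authors' deposited table (adjusted p = 1.6e-09). In all 3 polymerases the catalytic subunit had the more negative log2 fold change of the pair, and in polymerase alpha its partner Pola2 was called higher.

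Replication protein A, which coats single-stranded DNA, fell in all of its 3 subunits. Rpa1 had 50.8 FPKM in CON against 17.6 in LPS and 16.3 in ProNa, Rpa2 30.1, 7.12 and 5.69, and Rpa3 41.1, 12.8 and 11.5. By the authors' deposited table the falls in LPS were 2.17-fold, 3.45-fold and 2.67-fold, with adjusted p at or under 3.4e-17, and the order Rpa1, Rpa3, Rpa2 was the same in the 3 groups. The enzymes that finish Okazaki fragments fell too. Fen1, the flap nuclease, had 39.2, 16.7 and 11.9 FPKM and fell 1.93-fold in the authors' deposited table (adjusted p = 9.3e-33). Lig1, the ligase that seals the nick, had 29.5, 3.35 and 3.13 FPKM and fell 7.94-fold in the authors' deposited table (adjusted p = 2.5e-165).

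The 4 genes of deoxynucleotide supply all fell, with a median log2 fold change of -3.85 in the authors' deposited table. Rrm2, the S-phase subunit of ribonucleotide reductase, had 60.9 FPKM in CON against 1.91 in LPS and 1.68 in ProNa. Rrm1, the catalytic subunit, had 53.6, 4.55 and 4.78 FPKM. Near equal in CON, the partners differed 2.38-fold in LPS: the authors' deposited table gave Rrm2 a 29.4-fold and Rrm1 a 10.8-fold fall (adjusted p = 5.2e-282 and listed as 0). Tk1, the S-phase thymidine kinase, had 45.3, 1.42 and 1.41 FPKM and fell 19.2-fold in the authors' deposited table (adjusted p = 1.0e-138). Tyms, which makes thymidylate, had 35.9, 10.3 and 6.75 FPKM and fell 3.10-fold in the authors' deposited table (adjusted p = 8.0e-35). Uhrf1, which recruits the maintenance methyltransferase to newly copied DNA, had 38.6 FPKM in CON against 0.943 in LPS and 1.29 in ProNa. Its fall in LPS was 32.6-fold in the authors' deposited table (adjusted p = 2.4e-287).

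Several of these values rest on loci shared with other genes. By GENCODE M21, exons of 12 of the 40 genes overlap a gene on the opposite strand, and the sources used here do not say how strand was handled. Mcm7 overlaps Cops6 (51.5 FPKM in CON, 41.3 in LPS) and Ap4m1, Rfc4 overlaps Eif4a2 (102 and 95.1 FPKM), Rfc2 overlaps Lat2 (218 and 236 FPKM), Orc6 overlaps Vps35 and Fen1 overlaps Tmem258 (114 and 140 FPKM). Cdc45 overlaps Ufd1 (32.6 FPKM in CON, 59.7 in LPS) and Rfc5 overlaps Wsb2 (34.1 and 62.5 FPKM). Pole2 overlaps Gm49384 on its own strand (2.70 and 1.75 FPKM). Values of these members can hold reads of the partner, and how many was not tested. The pseudogenes Pcna-ps1, Pcna-ps2 and Tyms-ps were listed at 0 in all 3 groups.

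**Figure D2:**
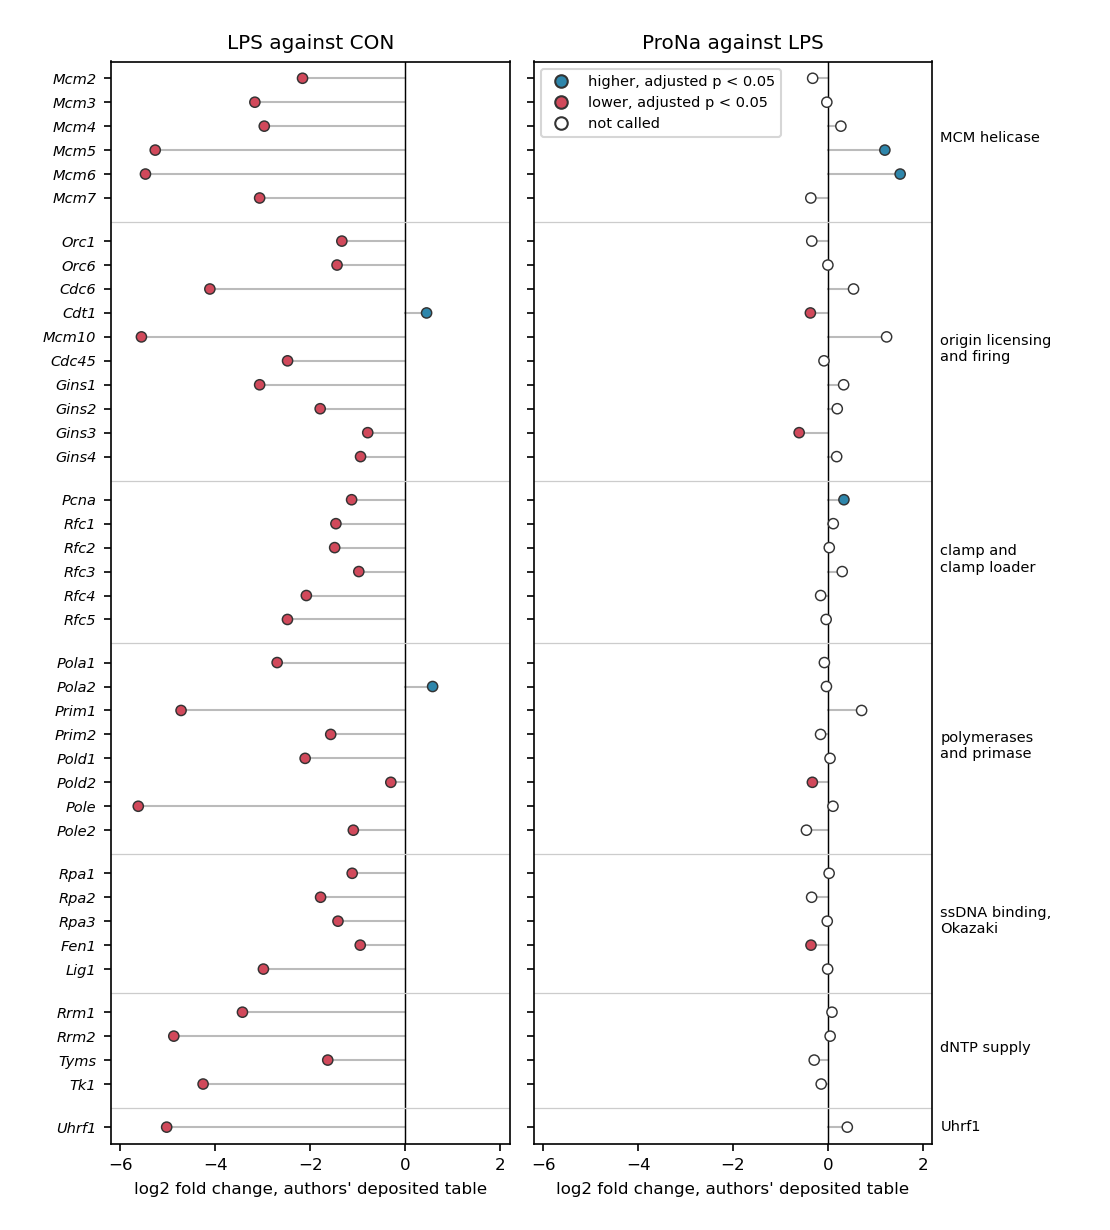
Log2 fold change of each of the 40 genes in the authors' deposited table, for LPS against CON (left) and ProNa against LPS (right), ordered by role, with filled points for genes called at an adjusted p under 0.05 and open points for the others. On the left 38 points are called lower and 2 higher, and on the right 33 of 40 are open.

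Subunits of 1 complex lay further apart in LPS than in CON in every complex listed here, by very unequal amounts. The ratio of the highest to the lowest subunit by group mean FPKM was 2.43 in CON but 158 in LPS and 74.6 in ProNa for the 4 subunits of polymerase epsilon. Its histone-fold subunits Pole3 and Pole4, which also serve in other complexes, had 24.4, 8.61 and 8.81 FPKM and 29.0, 44.2 and 42.3 FPKM. In polymerase alpha with primase the ratio was 2.69 in CON, 47.7 in LPS and 34.2 in ProNa, with assembled transcripts counted in Pola2. Polymerase delta, with Pold3 and Pold4 counted, had ratios of 1.77, 6.33 and 7.30, GINS of 2.40, 6.32 and 5.51 and replication factor C of 1.75, 4.90 and 5.65. The narrowest ratios in LPS were those of ribonucleotide reductase, at 1.14 in CON, 2.38 in LPS and 2.85 in ProNa, and replication protein A, at 1.69, 2.47 and 2.87. For the MCM ring it was 1.98 in CON, 7.91 in LPS and 2.55 in ProNa, where Mcm5 and Mcm6 stood closer to the rest. The order of subunits also differed between groups: Mcm6 was the second highest of the ring in CON and the fifth in LPS and ProNa, and Pold1 was second in CON and last in both other groups. These ratios are of group means, with no replicate error, and were not tested. A ratio of highest to lowest can also grow with the number of subunits. The largest in LPS, for polymerase epsilon and polymerase alpha with primase, rest on Pole (0.280 FPKM) and Prim1 (0.650 FPKM).

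**Figure D3:**
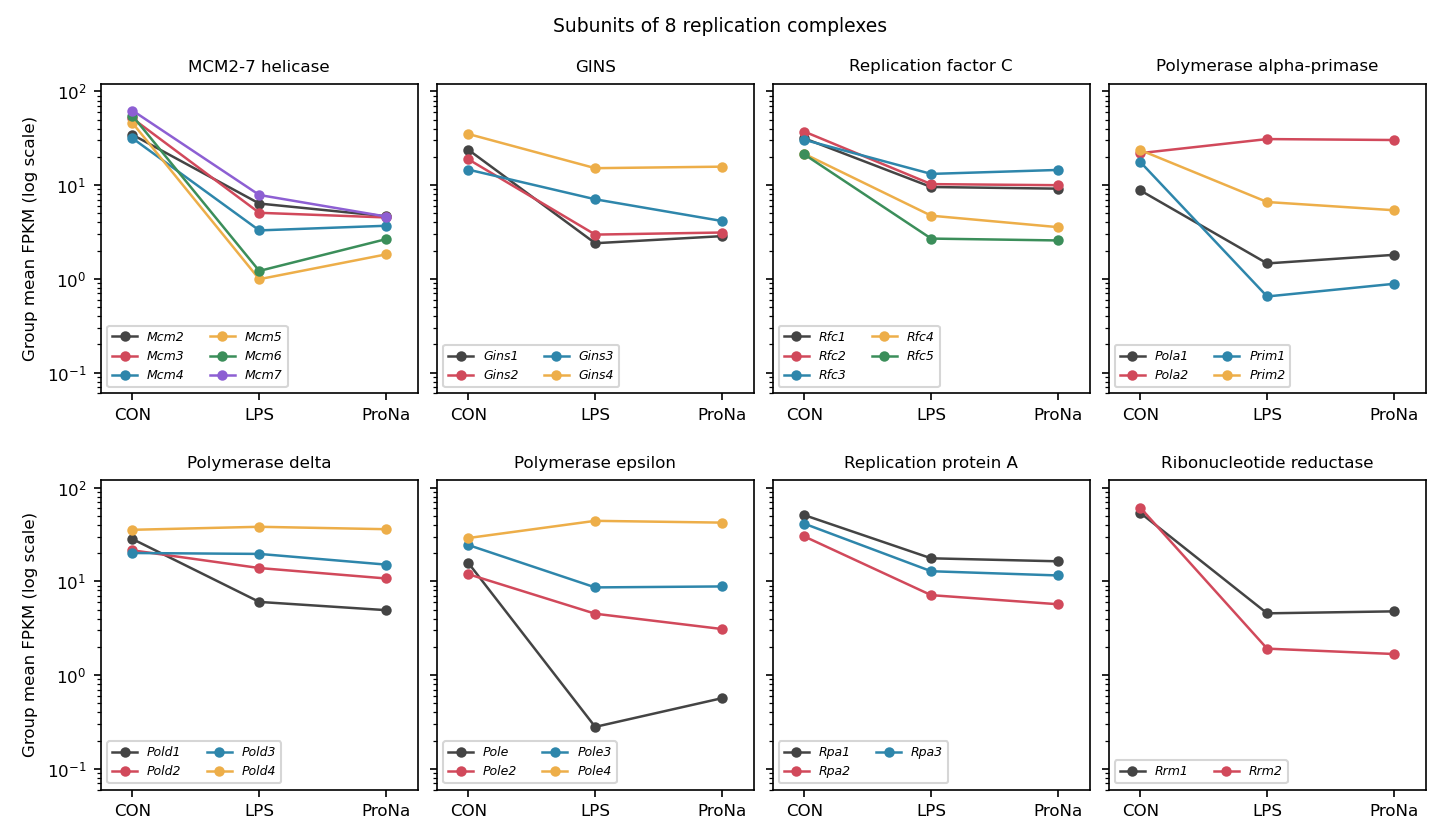
Group mean FPKM (log scale) of the subunits of 8 replication complexes in CON, LPS and ProNa, with 1 line per subunit and no error, since no values per sample could be assigned. Lines that start close together in CON fan out in LPS, most in polymerase epsilon (highest over lowest subunit 2.43 in CON and 158 in LPS). Pola2, Pold4 and Pole4 lie higher in LPS than in CON. Of these Pold4 was not called in the authors' deposited table (adjusted p = 0.71), and the higher Pola2 level rested on assembled transcripts.

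Pola2 and Cdt1 were the 2 genes called higher in LPS, and their transcripts differ. Pola2 (ENSMUSG00000024833) had 22.0 FPKM in CON against 31.0 in LPS and 30.3 in ProNa, 1.49-fold higher in LPS by the authors' deposited table (adjusted p = 1.4e-09). Its main coding transcript, ENSMUST00000025752, went the other way, from 14.0 FPKM in CON to 6.77 in LPS and 3.73 in ProNa. All coding transcripts of Pola2 together had 17.6, 16.4 and 13.2 FPKM. A transcript of 1969 bases that StringTie assembled from the reads, MSTRG.9770.2, had 0.237 FPKM in CON against 9.71 in LPS and 11.3 in ProNa. Without assembled transcripts the log2 ratio of Pola2, LPS over CON with 0.5 FPKM added, was -0.05, and with coding transcripts alone it was -0.10. The higher summed FPKM of Pola2 in LPS thus rested on assembled transcripts, and FPKM shared among transcripts of 1 gene are estimates.

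Cdt1 (ENSMUSG00000006585) had 37.7 FPKM in CON against 42.3 in LPS and 29.2 in ProNa, 1.36-fold higher in LPS by the authors' deposited table (adjusted p = 6.0e-10). Its coding transcript had 33.0 FPKM in CON against 36.0 in LPS and 23.6 in ProNa, so the higher level in LPS was also in the coding form. Cdt1 was the exception in the whole set in this respect: the coding transcripts summed to less in LPS than in CON in 39 of 40 genes. Of the 239 transcripts listed for the 40 genes, 92 were coding, 98 retained an intron and 16 were assembled. Coding transcripts held 84.3% of the summed level in CON, 83.3% in LPS and 83.6% in ProNa, so these shares differed by about 1 percentage point while the summed level was far lower. In Mcm7 and Cdc6 an assembled transcript was the highest in CON, at 32.2 FPKM (4.17 in LPS, 2.58 in ProNa) and 6.79 FPKM (0.357 and 0.230). Both fell in LPS as their coding transcripts did. For Rfc2 and Tyms the highest in CON was a transcript that retained an intron, at 14.1 and 12.3 FPKM. Coding transcripts held 6.86 of 37.2 FPKM for Rfc2 there and 8.16 of 35.9 FPKM for Tyms. They fell too, to 2.14 and 1.35 FPKM in LPS, with 1.92 and 1.32 FPKM in ProNa. The lower Tyms sum of ProNa than of LPS (6.75 against 10.3 FPKM) thus lay mostly outside coding transcripts.

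**Figure D4:**
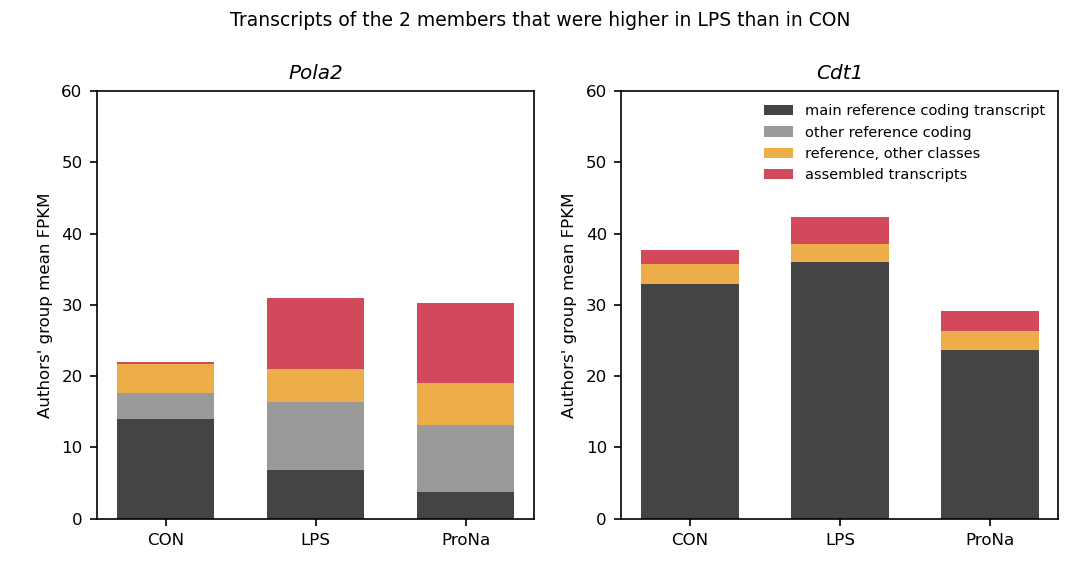
Group mean FPKM of Pola2 and Cdt1 split by transcript class in CON, LPS and ProNa, as stacked bars from 0, with no error. In Pola2 the assembled part is 0.237 FPKM in CON against 10.1 in LPS and 11.3 in ProNa, while in Cdt1 the main coding transcript makes up most of each bar.

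Other genes of the pathway, in 7 lists that leave out the 40, were mostly lower in LPS as well. Of 118 such genes tested in LPS against CON, 85 were called lower, 18 higher and 15 not called by the authors' deposited table. Over all genes tested in that comparison, 27.2% were called lower and 28.1% higher. Their median log2 fold change in the authors' deposited table was -1.10. Among 16 further origin genes 11 were lower and 2 higher by the authors' deposited table. Topbp1, which helps to fire origins, had 38.0 FPKM in CON against 6.10 in LPS and 5.53 in ProNa. Wdhd1, a fork coupler, had 14.4, 0.723 and 0.670 FPKM, and Gmnn, the inhibitor of Cdt1, had 60.2, 18.6 and 15.8. Cdt1 and Gmnn, a licensing factor and its inhibitor, thus differed in direction in LPS. Of 18 other fork genes 13 were lower and 2 higher by the authors' deposited table, Top2a and Clspn furthest. Top2a, which untangles copied DNA, went from 82.4 FPKM in CON to 0.733 in LPS, and Clspn, a fork checkpoint mediator, from 12.9 to 0.127.

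Nucleotide supply outside the set was split. Of 17 other deoxynucleotide genes 10 were lower and 6 higher in LPS by the authors' deposited table. The shares over all genes were 27.2% lower and 28.1% higher. Dck, the deoxycytidine kinase, had 39.1 FPKM in CON and 9.94 in LPS, and Dtymk, the thymidylate kinase, 68.3 and 14.0. Cmpk2, a mitochondrial nucleotide kinase known as an interferon-induced gene, went the other way, from 15.5 FPKM in CON to 308 in LPS and 677 in ProNa. Purine and pyrimidine synthesis had 16 of 19 genes lower and 2 higher by the authors' deposited table. Impdh2 had 115 FPKM in CON and 17.0 in LPS, Paics 144 and 29.8, and Prps2 19.1 and 2.61. Impdh2 starts the branch to guanine nucleotides, Paics acts midway in making the purine ring and Prps2 makes the activated ribose it is built on.

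In chromatin assembly and DNA methylation maintenance 11 of 14 genes were lower and 1 higher by the authors' deposited table. For each list of this paragraph the shares over all genes were 27.2% lower and 28.1% higher. Chaf1a, which deposits histones behind the fork, had 18.8 FPKM in CON and 1.65 in LPS, Asf1b, a histone chaperone, 39.0 and 1.71, and Hells, a chromatin remodeller, 16.6 and 1.75. Of 18 E2F, RB and DREAM regulators 12 were lower and 3 higher by the authors' deposited table. Foxm1, a factor for mitotic genes, had 27.6 FPKM in CON and 2.98 in LPS, Tfdp1, the partner of E2F proteins, 80.1 and 16.9, and Mybl2, the B-Myb factor, 16.3 and 1.18. Of 16 polymerases outside the fork 12 were lower and 2 higher by the authors' deposited table. Polh, which copies past damaged bases, had 12.3 FPKM in CON and 4.27 in LPS, and Poln 0.897 and 0.0367. Polm, an end-joining polymerase, was higher, with 2.32 FPKM in CON and 6.85 in LPS.

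Few of the replication genes were called between ProNa and LPS. By the authors' deposited table, 7 of 40 genes were called in ProNa against LPS, against 30.6% of the 12732 genes tested. Higher were Mcm6, Mcm5 and Pcna, 3 of 40 where 16.5% of all genes were called higher in the authors' deposited table. Lower were Gins3, Cdt1, Fen1 and Pold2, 4 of 40 where 14.1% were called lower in the authors' deposited table. Both shares were below the background, and 33 genes were not called. A p that misses the threshold does not show that a level was equal. The median log2 fold change of the 40 genes was -0.0041 in the authors' deposited table, and that of all genes -0.0024.

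Mcm6 had 1.22 FPKM in LPS and 2.66 in ProNa, 2.87-fold higher in the authors' deposited table (log2 fold change 1.52, adjusted p = 2.3e-10). Mcm5 had 0.993 FPKM in LPS and 1.83 in ProNa, 2.30-fold higher in the authors' deposited table (log2 fold change 1.2, adjusted p = 1.6e-05). These were the 2 deepest falls of the ring in LPS, and their ProNa levels were still 4.83% and 3.97% of CON. The comparisons share the LPS samples, so a low LPS value enters both. Both carry overlapping E2F-type letters before their starts, in capitals in the promoter sequences. The authors' deposited table called 2 letter-bearing genes higher here and 2 lower, Gins3 and Cdt1, out of 14. Their median was -0.015 on the log2 scale. Among the 19 without such letters that table called 1 higher and 2 lower, with a median at -0.033. Any link between letters and these calls was not tested. The other 4 ring subunits were not called. Mcm2 had a log2 fold change of -0.32 (adjusted p = 0.054) and Mcm7 of -0.36 (adjusted p = 0.11) in the authors' deposited table. Mcm10 had 0.447 FPKM in LPS and 1.00 in ProNa with a log2 fold change of 1.24 in the authors' deposited table, but its adjusted p was 0.071.

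Pcna rose from 103 to 118 FPKM, 1.26-fold in the authors' deposited table (adjusted p = 5.9e-06). Gins3 had 7.07 FPKM in LPS and 4.15 in ProNa, 1.52-fold lower in the authors' deposited table (adjusted p = 3.0e-04). Cdt1 went from 42.3 to 29.2 FPKM, 1.29-fold lower in the authors' deposited table (adjusted p = 1.3e-05). Cdt1 was thus called higher in LPS than in CON and lower in ProNa than in LPS. Fen1 had 16.7 and 11.9 FPKM, 1.28-fold lower in the authors' deposited table (adjusted p = 0.0020), and Pold2 13.9 and 10.7 FPKM, 1.26-fold lower (adjusted p = 0.042). Rrm1, Rrm2, Tyms and Tk1 were not called, with log2 fold changes of 0.08, 0.05, -0.29 and -0.14 in the authors' deposited table. Pole went from 0.280 to 0.567 FPKM, yet the authors' deposited table gave a log2 fold change of 0.11 (adjusted p = 0.90), so the summed FPKM and the gene test differed for this scarce message.

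The split of these calls depended on the scale. Over all genes the deposited log2 fold changes lay above the log2 ratios of group mean FPKM at the median, though not for every gene. The median gap was 0.26 in LPS against CON, 0.13 in ProNa against LPS and 0.40 for ProNa against CON. With every fold change of the authors' deposited table lowered by that median (the FPKM scale), 3 of the 40 genes were called higher in ProNa against LPS and 8 lower, Mcm2, Mcm7, Pole2 and Rpa2 joining the 4 above. On that scale 10.7% of all genes were called higher and 25.7% lower. The 7 calls named above held on both scales, as did all 40 calls of LPS against CON.

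Of 113 pathway genes outside the set tested in ProNa against LPS, 15 were called higher, 14 lower and 84 not called by the authors' deposited table. Over all genes 16.5% were called higher and 14.1% lower, so that the counts of the pathway genes lay near the background. The median of these 113 genes in the authors' deposited table was -0.0027 on the log2 scale. On the FPKM scale the split was 12 higher and 24 lower. Of 17 further genes of deoxynucleotide and thymidylate supply 3 were called higher, 1 lower and 13 not called in the authors' deposited table. The lower one, outside the naming rule and named after its value was seen, was the salvage kinase Dguok, 1.34-fold lower in the authors' deposited table (adjusted p = 0.031). Dck went from 9.94 FPKM in LPS to 25.4 in ProNa, 2.78-fold higher in the authors' deposited table (adjusted p = 1.9e-58). Samhd1, which degrades deoxynucleotides, had 164 FPKM in CON against 183 in LPS and 376 in ProNa, 2.33-fold higher than LPS in the authors' deposited table (adjusted p = 1.5e-65). Cmpk2 was 2.43-fold higher in ProNa than in LPS in the authors' deposited table (adjusted p = 7.0e-78).

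Timeless, which steadies the fork, had 13.8 FPKM in CON against 4.33 in LPS and 8.59 in ProNa, 2.32-fold higher than LPS in the authors' deposited table (adjusted p = 2.2e-19). Top1 and Top2b, topoisomerases, were 1.28-fold and 1.30-fold higher in the authors' deposited table. Recql4, a helicase of origin firing, had 4.88 FPKM in LPS and 2.22 in ProNa, 2.03-fold lower in the authors' deposited table (adjusted p = 1.3e-09). Dbf4, the activator of the Cdc7 kinase, was 1.42-fold lower and Mcmbp, a binder of MCM proteins, 1.34-fold higher in the authors' deposited table. Of 19 genes of purine and pyrimidine synthesis 3 were called higher and 3 lower in the authors' deposited table, where the shares over all genes were 16.5% and 14.1%. Impdh2, Ppat (the first committed step) and Hprt (salvage) were 1.68-fold, 1.46-fold and 1.35-fold higher in the authors' deposited table. The lower genes, outside the naming rule and named after their values were seen, were Cad, Umps and Adss, at 1.41-fold, 1.30-fold and 1.15-fold lower in the authors' deposited table. Cad and Umps act in making pyrimidines and Adss in making adenine nucleotides.

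Of 14 genes of chromatin assembly and DNA methylation maintenance 2 were called higher, 2 lower and 10 not called in ProNa against LPS by the authors' deposited table. Beside this and the other count of this paragraph stand the shares over all genes, 16.5% higher and 14.1% lower. The histone chaperone Asf1a was 1.98-fold higher and Chaf1b 1.63-fold lower in the authors' deposited table. Uhrf2, a relative of Uhrf1, fell 1.2-fold in the authors' deposited table. Of the regulators, Foxm1 was 1.30-fold higher, the repressor E2f6 1.28-fold lower and Rb1, the retinoblastoma protein that holds E2F in check, 1.2-fold lower in the authors' deposited table. The call of Foxm1 was lost on the FPKM scale (adjusted p = 0.19) and that of Rb1 when centred on the median of all genes (adjusted p = 0.052). Of 14 polymerase genes outside the fork 2 were called higher and 4 lower in the authors' deposited table. Polb, a repair polymerase, was 1.38-fold higher, and Twnk, the mitochondrial helicase, and Rev1 were 1.38-fold and 1.33-fold lower in the authors' deposited table.

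ProNa against CON gave nearly the picture of LPS against CON, with which it shares the CON samples. By the authors' deposited table, 38 of 40 genes were called lower, against 26.6% of the 18540 genes tested, 1 was called higher, against 27.7%, and the share called over all genes was 54.4%. The median log2 fold change was -2.18 in the authors' deposited table, and that of all genes -0.03. Pola2 was the gene called higher, 0.55 on the log2 scale in the authors' deposited table (adjusted p = 1.2e-10), and its coding transcripts had 17.6 FPKM in CON and 13.2 in ProNa. On the FPKM scale Pola2 was not called (0.15 on the log2 scale, adjusted p = 0.12) and Cdt1 was called lower (-0.32 on the log2 scale). Cdt1 was not called, with a log2 fold change of 0.08 in the authors' deposited table (adjusted p = 0.31), while its group mean was 37.7 FPKM in CON and 29.2 in ProNa. Pole had the deepest fall here as well, -5.49 on the log2 scale in the authors' deposited table. Levels in ProNa ran from 2.75% of CON for Rrm2 and 3.11% for Tk1 to 50.1% for Pold2, 77.4% for Cdt1 and 138% for Pola2. Of the 118 pathway genes outside the set 85 were called lower, 18 higher and 15 not called by the authors' deposited table.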

How the data were processed

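The submitters' processing notes name HISAT2, StringTie, DESeq2 and the build GRCm39, and versions are not given in the sources used here. Of 3 deposited files 2 were used. The first holds FPKM per transcript (153363 transcripts, 12638 of them assembled), per the file headers, with the authors' group means in the columns CON, LPS and ProNa. A further 9 columns of values per library carry names that match no label and were not used. The second file, the authors' deposited table, lists 53700 genes and, per the file headers, gives for each of 3 comparisons a fold, its log2 value, a p-value and its adjusted value. An adjusted p listed as 0 is too small for that table. Recomputing the Benjamini-Hochberg adjustment gave the authors' adjusted p-values again, over 17795, 12732 and 18540 genes.

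Computed here, with Python 3.11.15, pandas 2.3.3 and scipy 1.17.1, were FPKM summed by gene, counts of calls, medians, folds on another scale and promoter letters. For the FPKM scale, every log2 fold change was lowered by the median difference to the log2 ratio of group mean FPKM. Each p was recomputed from the gene's implied standard error. This step was run on simulated data in which the shift was known and supplied. That run cannot say whether the median difference is the right shift for these data. Transcript classes come from GENCODE M21 by identifier and promoters from RefSeq GRCm38.p6. No count per library was used, so a planned limma fit could not be made.

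The 40 genes and all lists were chosen with earlier results of these data known. Named genes are the 40, and from each other list the 3 with the smallest adjusted p in LPS against CON and in ProNa against LPS among those under 0.05.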

Additional observations from a re-analysis of the deposited data

How the results depend on the processing

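No paired analysis was possible because the columns of values per library carry names that match no sample label, so the limma fits with and without the replicate block and the fits leaving out each replicate were not run. In LPS against CON all 40 calls were kept on the FPKM scale, centred on the median of all genes and over genes with at least 1 FPKM, an adjusted p threshold of 0.01 lost Pold2, and a 2-fold filter left 33. Coding transcripts alone and reference transcripts alone, both chosen after seeing the data, gave ratios below CON for Pola2, the cause being the assembled transcripts left out. What depth limits cannot be said, since read totals are unknown, and 6 of 40 genes were under 1 FPKM in LPS.

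With at least a 2-fold change required, members called higher were 0 in LPS against CON and 0 in ProNa against CON, and 2 were called in ProNa against LPS, 0 of them lower. Under the same filter the other pathway genes called were 63 in LPS against CON (4 higher), 5 in ProNa against LPS (4 higher, 1 lower) and 67 in ProNa against CON (5 higher). At an adjusted p under 0.01, other pathway genes called lower in ProNa against LPS were 8. On the FPKM scale members called in ProNa against LPS were 11 (8 lower), members called higher in ProNa against CON were 0, and other pathway genes called were 9 higher in LPS against CON, 24 lower in ProNa against LPS and 10 higher in ProNa against CON. Over all genes that scale called 36.3% in ProNa against LPS, with 25.7% lower. It called higher 3806 of 17795 genes in LPS against CON and 3391 of 18540 in ProNa against CON. The median of the 40 genes in ProNa against LPS was -0.070, -0.079 and -0.064 as log2 ratios of group mean FPKM with 0.5, 0.1 and 1 FPKM added, and -0.094 over reference transcripts only. For these the cause was not tested, beyond the stricter filters and the shift themselves.

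Some values changed sign on the FPKM scale. Of these Samhd1 was called lower in LPS against CON (adjusted p = 0.0016), and Hprt (adjusted p = 2.6e-10) and Cdt1 (adjusted p = 4.4e-06) were called lower in ProNa against CON, though none of the 3 was called for these comparisons in the authors' deposited table. In LPS against CON they were Recql4 at -0.17, Top1 at -0.086 and Samhd1 at -0.22. In ProNa against LPS they were Rfc1 at -0.018, Rfc2 at -0.10, Pold1 at -0.087, Pole at -0.025, Rpa1 at -0.11, Rrm1 at -0.046, Rrm2 at -0.085, Prps2 at -0.071, Chaf1a at -0.13, Tfdp1 at -0.040 and Polm at -0.093. In ProNa against CON they were Cdt1 at -0.32, Hprt at -0.32 and Uhrf2 at -0.13. Every gene took the same shift, so a gene's own group means could still differ in direction. Mean FPKM of Samhd1 was 164 in CON and 183 in LPS. In ProNa it was higher than in LPS for Pole (0.567 and 0.280), Rrm1 (4.78 and 4.55) and Polm (7.11 and 6.85). For the other genes listed here on this scale the group means were lower, as the shifted values were. Orc6 in ProNa against LPS was 0.00074 when centred on the median of all genes. The log2 ratio of Pola2 in LPS against CON was -0.051 over reference transcripts and -0.10 over coding transcripts, and that of Pola1 in ProNa against LPS was -0.0071 over coding transcripts.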
